A study of Mus musculus with 8 samples.

Results

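The miR-23/27/24 miRNAs come from 2 short clusters of hairpins in the mouse genome, and the assays for them on a TaqMan miRNA card were followed in the lumbar ventral spinal cord. Members were all card A assays named for miR-23a, miR-23b, miR-24, miR-27a or miR-27b. The rule found 5 of the 375 miRNA assays on the card. Of these, 4 had a threshold cycle (Ct, the PCR cycle at which the signal passes a set level, so that a lower Ct stands for more RNA) in all 8 samples. The assay for mmu-miR-23a was undetermined in all 8 samples, so that miRNA has no level in any of the results that follow. The rule used names only and no measured value.

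Both groups were 4 months old and on the FVB strain background. One group was wild type FVB mice. The other carried MLC/SOD1[G93A], a mutant human SOD1 expressed under the muscle-specific MLC promoter, so that the transgene is directed to skeletal muscle and not to the tissue that was profiled. Each group had 4 samples of ventral lumbar cord, 1 card each. Wild type samples are numbered 1 to 4. The columns of MLC/SOD1[G93A] samples are numbered 5a to 8a and could be matched to the group but not to single labelled samples. The comparison asks whether a mutant protein made in muscle goes with altered miRNA levels in the cord. Because the RNA was from whole tissue, fewer cells of a type and less RNA per cell cannot be told apart.

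A miRNA guides a silencing complex to messenger RNAs that pair with its seed, bases 2 to 8 from the 5′ end. Hairpins that lie in tandem are often cut from one primary transcript, although the mature strands can differ in processing and in stability. In oligodendrocytes, the cells that make central myelin, miR-23 is known to repress lamin B1 and to promote differentiation. miR-27 is known for its effect on fat cell differentiation, and miR-24 for its repression of cell cycle genes.

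One cluster is on chromosome 8 of the GRCm38.p6 assembly, plus strand, and spans 404 bases. It holds Mir23a (chr8:84208518-84208592), Mir27a (chr8:84208672-84208758) and Mir24-2 (chr8:84208815-84208921), in that order, with gaps of 79 and 56 bases. The other is on the plus strand of chromosome 13, within the protein-coding gene Aopep, and spans 792 bases. It holds Mir23b (chr13:63300484-63300557), Mir27b (chr13:63300712-63300784) and Mir24-1 (chr13:63301208-63301275), with gaps of 154 and 423 bases. The annotation also places Mir3074-2 over Mir24-2 and Mir3074-1 over Mir24-1.

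The mature sequences decide which of these hairpins an assay can tell apart. The RefSeq table used here gave 4 of the 5, all but mmu-miR-23b, and the card names give no arm, so the 3p strand is shown, 5′ to 3′, with the seed in capitals.
mmu-miR-23a-3p: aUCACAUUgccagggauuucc
mmu-miR-27a-3p: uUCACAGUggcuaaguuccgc
mmu-miR-27b-3p: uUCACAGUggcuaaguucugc
mmu-miR-24-3p: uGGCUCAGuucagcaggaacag
The strands of mmu-miR-27a and mmu-miR-27b differ by 1 of 21 bases, C19U counted from the 5′ end, and have the same seed. In the RefSeq table no other miRNA assayed on the card shares that seed, but assays without a sequence there, such as mmu-miR-23b, were not compared. The seed of mmu-miR-23a differs from it by 1 of 7 bases, U7G. mmu-miR-24-3p is encoded by 2 hairpins, Mir24-1 and Mir24-2, so its assay sums both clusters. By their names, mmu-miR-23b and mmu-miR-27b were assigned to the chromosome 13 cluster and mmu-miR-27a to the chromosome 8 cluster, with mmu-miR-24 in both. How far the mmu-miR-23a and mmu-miR-23b assays detect each other was not measured here. How well the mmu-miR-27a and mmu-miR-27b assays separate a difference of 1 base was likewise not measured.

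mmu-miR-24 was by far the most abundant member if the assays are taken to amplify alike, which was not tested. Its mean Ct was 22.88, the 8th lowest among 190 miRNAs with a Ct in every sample. The mean Ct of mmu-miR-27a was 29.76, of mmu-miR-27b 29.77 and of mmu-miR-23b 30.88, at ranks 121, 122 and 148. mmu-miR-27a and mmu-miR-27b, from different clusters, had Ct values within 0.53 cycles of each other in every sample.

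mmu-miR-23b was the member that stood apart between the groups before any normalization. Its Ct was 30.23, 30.47, 29.97 and 30.57 in wild type samples 1 to 4, and 31.84, 31.43, 31.91 and 30.65 in MLC/SOD1[G93A] samples 5a to 8a. The groups did not overlap, although 8a lay only just above the highest wild type sample. The mean Ct was 1.15 cycles higher in MLC/SOD1[G93A] (30.31 ± 0.27 against 31.46 ± 0.58, SD, n = 4 each, two-sided exact permutation p = 0.0286, which no split of 4 against 4 can go below). Of the 190 miRNAs, 5 (2.63%) had a Ct that was higher in MLC/SOD1[G93A] without overlap, and mmu-miR-23b was 1 of them. Without a reference, limma, a linear model with variances moderated over all miRNAs, gave mmu-miR-23b an adjusted p of 0.315 over the card.

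mmu-miR-24 showed almost no spread. Its Ct was 23.18, 22.84, 22.97 and 22.87 in wild type and 22.96, 22.79, 22.74 and 22.69 in MLC/SOD1[G93A]. All 8 samples lay within 0.49 cycles, with an SD of 0.16. The mean difference of -0.17 cycles did not pass the exact permutation test (p = 0.114, n = 4 each).

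The miR-27 pair varied most within the wild type group. mmu-miR-27a had a Ct of 30.53, 29.76, 29.00 and 29.09 in wild type and of 30.18, 30.01, 29.97 and 29.52 in MLC/SOD1[G93A]. mmu-miR-27b had a Ct of 30.81, 29.57, 28.76 and 28.94 in wild type and of 29.82, 30.19, 30.50 and 29.54 in MLC/SOD1[G93A]. For both, wild type sample 1 was the highest of all and samples 3 and 4 the lowest, and the MLC/SOD1[G93A] samples lay inside the wild type range. The mean Ct differed by 0.33 cycles for mmu-miR-27a (exact permutation p = 0.457, n = 4 each) and by 0.49 for mmu-miR-27b (exact permutation p = 0.40).

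Ct values carry the amount and quality of each sample's RNA, so 2 references were used. The first was the mean of the 4 wells of U6, a small nuclear RNA. The second, called the global mean, averaged the Ct of the same 190 miRNAs in each sample. Log2 expression is the reference Ct minus the Ct of the miRNA, so that a higher value stands for more RNA. The mean U6 Ct ran from 17.45 to 18.44 in wild type and from 16.88 to 18.50 in MLC/SOD1[G93A], and its 4 wells spread over 2.14 cycles in sample 7a and 1.97 in 8a, against at most 1.05 in any other sample. The global mean Ct ran from 28.02 to 29.00 and from 28.27 to 28.87. Across all 227 miRNAs tested the median log2 change, MLC/SOD1[G93A] minus wild type, was -0.31 by the U6 reference, with 77.5% of miRNAs below 0. By the global mean it was 0.04, with 46.3% below 0. Sample 7a had the lowest U6 Ct of all, and its part in the negative median was not tested.

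**Figure D1:**
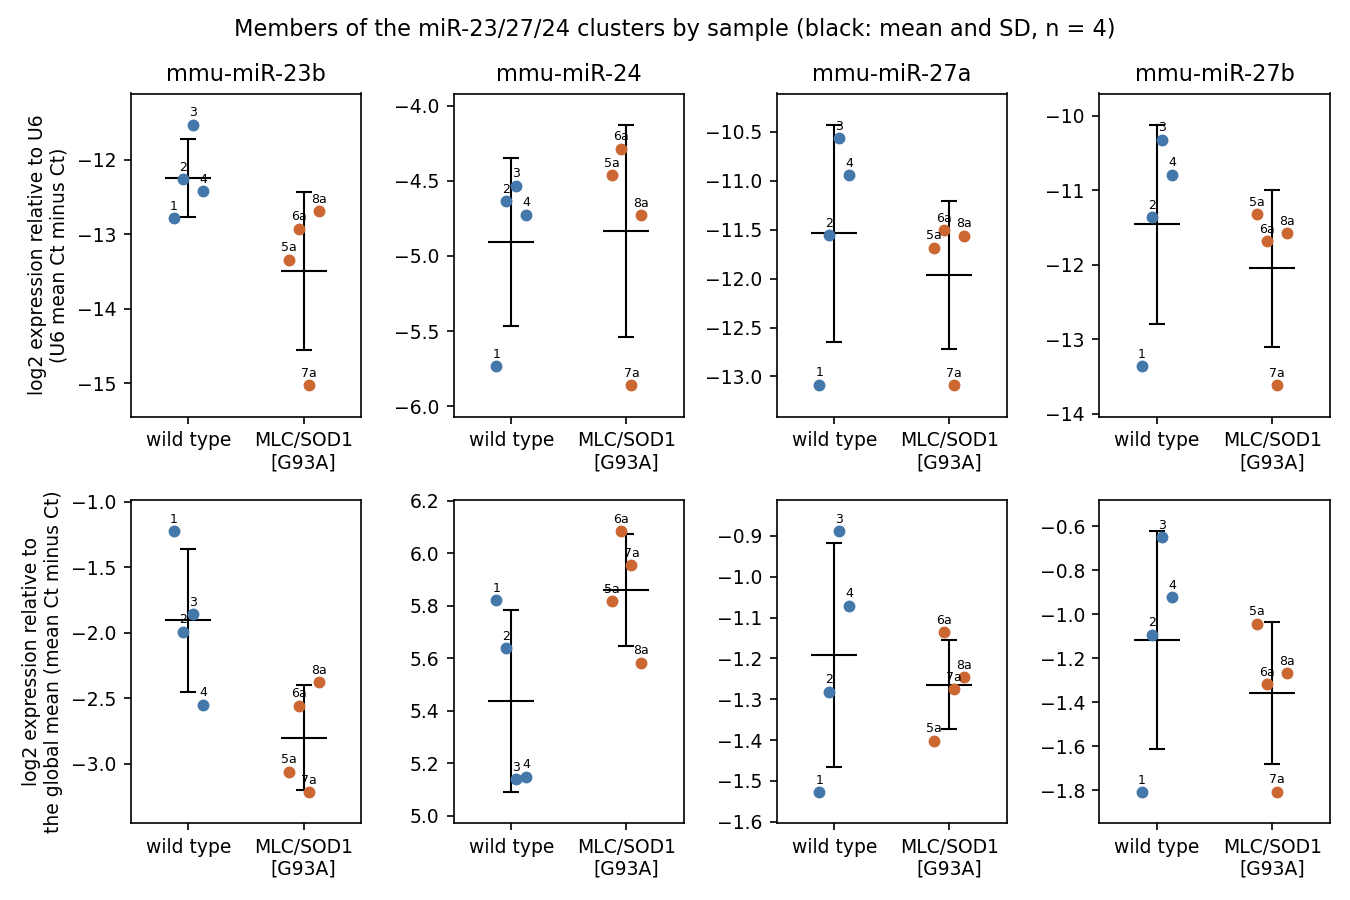
Log2 expression of the 4 measured members (y axis) in each wild type (1 to 4) and MLC/SOD1[G93A] (5a to 8a) sample, relative to U6 in the upper row and to the global mean in the lower row, where points are samples and black bars are the mean and SD. For mmu-miR-23b all 4 MLC/SOD1[G93A] samples lie below the wild type mean in both rows, with wild type 4 or wild type 1 reaching into their range, while mmu-miR-27a and mmu-miR-27b overlap throughout.

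Relative to U6, mmu-miR-23b had log2 values of -12.78, -12.27, -11.53 and -12.43 in wild type and of -13.34, -12.93, -15.03 and -12.69 in MLC/SOD1[G93A]. Sample 8a lay above wild type 1, so the groups overlapped by 1 sample, and 7a was lowest by over 1 cycle. The change was -1.25 (SE 0.63, 95% confidence interval -2.57 to 0.07), or 2.37-fold lower. It was the 8th most negative of 227 miRNAs. By limma it had p = 0.0628 and an adjusted p of 0.975, and by the exact permutation test p = 0.0571 (n = 4 each). Without 7a the change was -0.74, and without wild type 1 it was -1.42 (limma adjusted p = 0.236).

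Relative to the global mean the same miRNA had log2 values of -1.23, -1.99, -1.86 and -2.55 in wild type and of -3.06, -2.56, -3.22 and -2.38 in MLC/SOD1[G93A]. Wild type 4 was the sample that overlapped, with 6a and 8a on either side of it. The change was -0.90 (SE 0.33, 95% confidence interval -1.63 to -0.16), or 1.86-fold lower. Its place as the 8th most negative of 227 largely carries over from U6, because changing the reference moves all miRNAs measured in every sample alike. The unadjusted limma p was 0.0219, at rank 10, and the adjusted p was 0.497. The exact permutation p was 0.0571 (n = 4 each). The interval is narrower than under U6, as it was for most miRNAs, with a median SE of 0.32 against 0.66.

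mmu-miR-24 did not share that direction. Relative to U6 its change was 0.07 (SE 0.59, limma adjusted p = 0.975), with wild type 1 at -5.73 and 7a at -5.86 far below the other samples, which lay between -4.73 and -4.29. Relative to the global mean it had log2 values of 5.82, 5.64, 5.14 and 5.15 in wild type and of 5.82, 6.08, 5.95 and 5.58 in MLC/SOD1[G93A]. All 4 MLC/SOD1[G93A] samples lay above wild type 3 and 4, and wild type 1 and 2 lay within their range. The change was 0.42 (SE 0.25, 95% confidence interval -0.13 to 0.98, limma adjusted p = 0.637), or 1.34-fold higher.

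The change of mmu-miR-27a was -0.42 relative to U6 (SE 0.66, limma adjusted p = 0.975) and -0.07 relative to the global mean (SE 0.22, 95% confidence interval -0.57 to 0.42, limma adjusted p = 0.978). Relative to the global mean its values lay between -1.53 and -0.89 in wild type and between -1.40 and -1.14 in MLC/SOD1[G93A]. The change of mmu-miR-27b was -0.59 relative to U6 (SE 0.72, limma adjusted p = 0.975) and -0.24 relative to the global mean (SE 0.30, 95% confidence interval -0.91 to 0.43, limma adjusted p = 0.897). Its values relative to the global mean lay between -1.81 and -0.65 in wild type and between -1.81 and -1.04 in MLC/SOD1[G93A]. Single samples weighed on these values. Relative to U6, mmu-miR-27a ran from -0.94 without wild type 1 to -0.05 without 7a, and mmu-miR-27b from -1.23 to -0.07 without the same samples. Relative to the global mean, mmu-miR-27a ran from -0.19 without wild type 1 to 0.03 without wild type 3, and mmu-miR-27b from -0.48 to -0.09. The intervals leave room for a shift of either miR-27 in either direction.

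No member passed an adjusted p of 0.05 under either reference, and neither did any other miRNA on the card (0% of 227 under U6, smallest limma adjusted p 0.640, and 0% under the global mean, smallest 0.424). At an unadjusted limma p under 0.05, 2.2% of miRNAs were lower and 0.441% higher relative to U6, and none of these was a member. Relative to the global mean 5.73% were lower, mmu-miR-23b among them, and 3.52% higher, with no member among them. Leaving out wild type 1 raised these counts, from 5 to 34 miRNAs lower with U6 and from 13 to 21 with the global mean. Those higher rose from 1 to 2 with U6 and from 8 to 27 with the global mean. Without wild type 1, mmu-miR-451, a red blood cell miRNA and no member, passed relative to U6 (log2 change -2.55, limma adjusted p = 0.0400). The log2 change was below 0 for 3 of the 4 measured members under both references, beside 77.5% of all miRNAs with U6, a like share, and 46.3% with the global mean. The median of the 4 was -0.51 with U6 and -0.16 with the global mean.

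A reference with a single value per sample moves all members alike, so against each such reference mmu-miR-23b was bound to stay the lowest member. Only the size of its change could differ. The card also carries the small RNAs snoRNA135, snoRNA202, U87 and Y1. The change of mmu-miR-23b was -0.76 against snoRNA135, -1.28 against snoRNA202 and -0.31 against Y1. Against snoRNA202, the limma adjusted p was 0.176. U87 had a Ct of 18.40 in 8a and of 27.87 to 29.54 in the other 7 samples, so values against it rest on that 1 sample. A further reference, chosen after the data were seen, used for each miRNA the other miRNAs whose mean Ct lay within 2 cycles of its own, 87 of them for mmu-miR-23b and 19 for mmu-miR-24. On that scale the change was -0.88 for mmu-miR-23b (limma adjusted p = 0.495), 0.35 for mmu-miR-24 (limma adjusted p = 0.600), -0.03 for mmu-miR-27a and -0.19 for mmu-miR-27b. The groups of mmu-miR-24 did not overlap there (exact permutation p = 0.0286, n = 4 each), as for 2.12% of the miRNAs that could be placed on it, counting those higher in MLC/SOD1[G93A]. Those of mmu-miR-23b did overlap (exact permutation p = 0.0857).

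**Figure D2:**
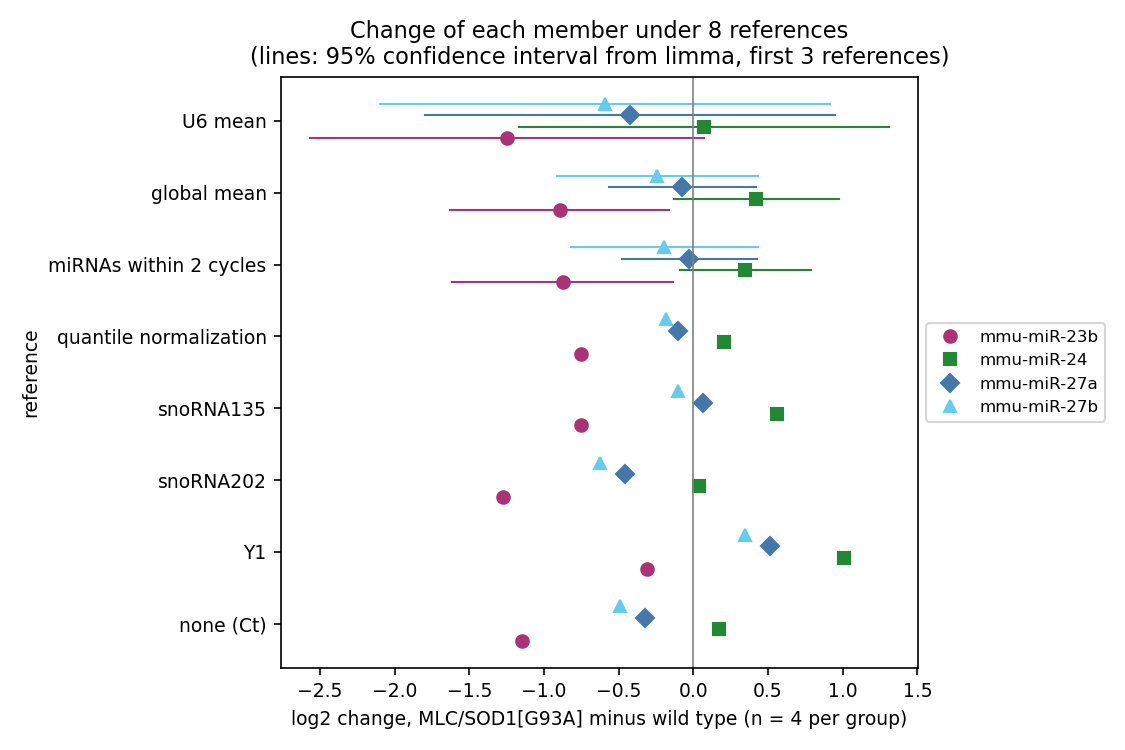
Log2 change of each member, MLC/SOD1[G93A] minus wild type (x axis, n = 4 each), under 8 references (y axis), where markers are members and lines the 95% confidence interval from limma for the first 3 references. mmu-miR-23b is the leftmost marker in every row, from -1.28 against snoRNA202 to -0.31 against Y1, and mmu-miR-24 the rightmost. Except for miRNAs within 2 cycles and quantile normalization, each reference is a single value per sample that moves all members alike, so their order there is fixed.

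Whether members of one cluster moved together was asked first without any reference, from the Ct difference between 2 members in the same sample. Among the 6 pairs of measured members, 4 share a cluster if mmu-miR-24 is counted with both. The pair mmu-miR-23b and mmu-miR-24 separated the groups. Their Ct difference was 7.05, 7.63, 7.0 and 7.70 cycles in wild type and 8.88, 8.64, 9.17 and 7.96 in MLC/SOD1[G93A]. The highest wild type sample lay 0.26 cycles below the lowest MLC/SOD1[G93A] sample, so the groups did not overlap.

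Relative to mmu-miR-24, mmu-miR-23b was 1.32 cycles, or 2.49-fold, lower in MLC/SOD1[G93A] (7.35 ± 0.37 against 8.66 ± 0.52, SD, n = 4 each, two-sided exact permutation p = 0.0286, again the smallest possible). By limma over all pairs the 95% confidence interval was 0.49 to 2.15 cycles. Over all 17955 pairs of the 190 miRNAs, 881 pairs (4.91%) separated the groups without overlap, and 1 of the 6 member pairs did. Adjusted over all pairs, the exact permutation test gave p = 0.582 and limma p = 0.581. The shift was between 1.15 and 1.55 cycles when each sample was left out in turn. The exact permutation p was 0.0571 without any one of the 4 wild type samples and 0.0286 without any one of the MLC/SOD1[G93A] samples. Groups that do not overlap cannot come to overlap when a sample is left out, so their separation was not tested by this.

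The 2 members that belong to the chromosome 13 cluster alone, mmu-miR-23b and mmu-miR-27b, differed in Ct by 0.79 ± 0.96 cycles in wild type and 1.45 ± 0.40 in MLC/SOD1[G93A] (SD, n = 4 each). The shift of 0.66 cycles had a 95% confidence interval of -0.44 to 1.75 by limma and an exact permutation p of 0.286. It was 0.20 cycles without wild type 1 and 0.94 without wild type 4. Wild type 1 was the sample in which mmu-miR-23b had the lower Ct of the pair, by 0.58 cycles. In the other 7 samples it had the higher Ct, by 0.90 to 2.02 cycles.

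Against mmu-miR-27a, of the other cluster, mmu-miR-23b was 0.82 cycles lower in MLC/SOD1[G93A] (95% confidence interval -0.12 to 1.77 by limma, exact permutation p = 0.0857, n = 4 each). mmu-miR-24 had a Ct further below that of mmu-miR-27a by 0.50 cycles (exact permutation p = 0.257, n = 4 each) and of mmu-miR-27b by 0.66 cycles (exact permutation p = 0.20). The 2 miR-27 assays shifted least against each other. Their Ct difference was 0.08 ± 0.24 cycles in wild type and -0.09 ± 0.37 in MLC/SOD1[G93A], a shift of -0.17 (95% confidence interval -0.89 to 0.56 by limma, exact permutation p = 0.486).

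**Figure D3:**
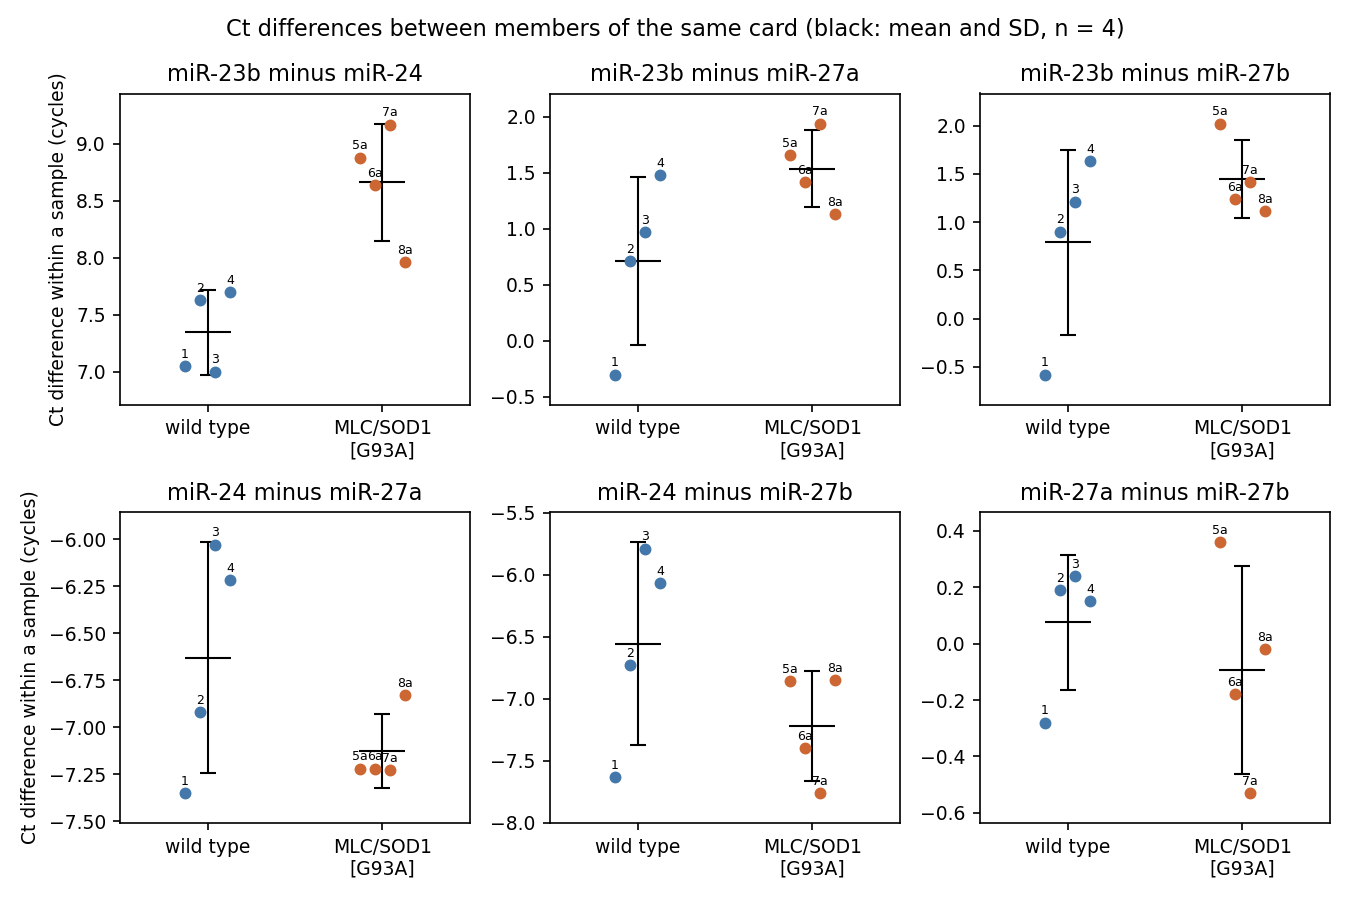
Ct difference between 2 members in the same sample, in cycles (y axis), for the 6 member pairs in wild type (1 to 4) and MLC/SOD1[G93A] (5a to 8a), where points are samples and black bars the mean and SD. The groups are apart for miR-23b minus miR-24, from 7.0 to 7.70 cycles against 7.96 to 9.17, and overlap in the other 5 pairs.

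The same reference-free reading was made against every other miRNA. mmu-miR-23b was lower in MLC/SOD1[G93A] without overlap against 44 of 189 partners, the 5th highest such count of 190 miRNAs, where the median was 1 and the highest 69. Its mean was lower against 184 of 189 partners, and against none was it higher without overlap. mmu-miR-24 was higher without overlap against 13 partners (rank 18, median 2, highest 53) and lower against 2. mmu-miR-27a was lower against 4 and higher against 3, and mmu-miR-27b lower against 4 and higher against 2. These counts share the 8 samples and the member's own Ct, so they are a description and not 189 tests.

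**Figure D4:**
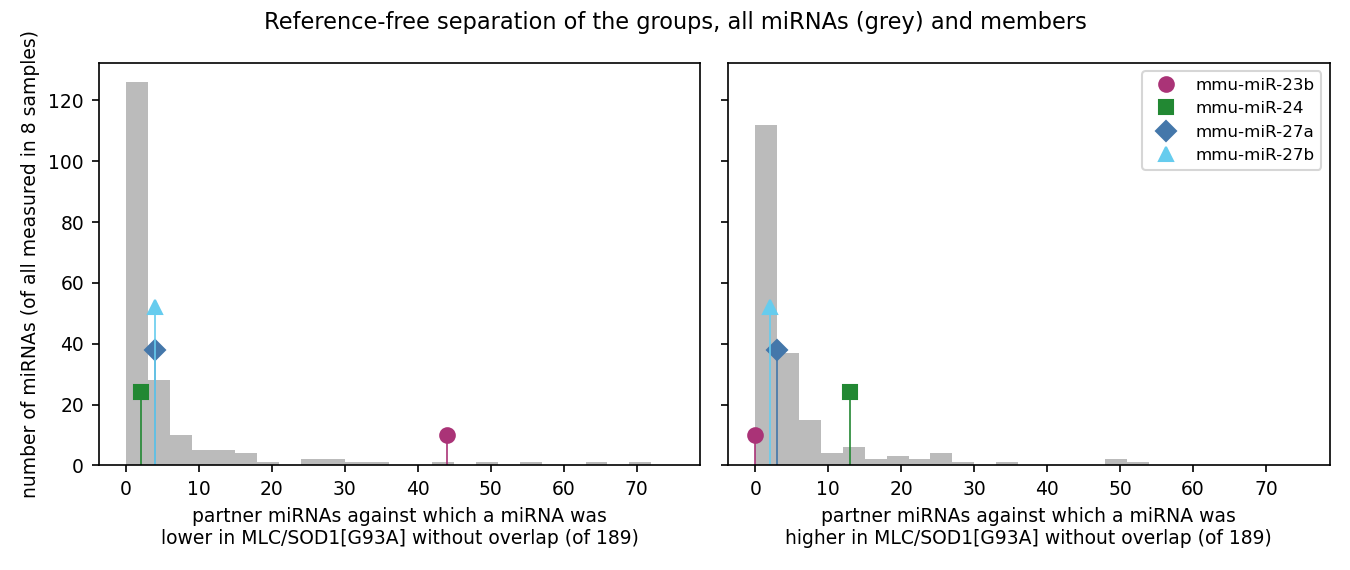
Number of miRNAs (y axis, grey bars, 190 in all) by the count of partners against which each was lower (left) or higher (right) in MLC/SOD1[G93A] without overlap (x axis, of 189), with markers at the members' counts and marker height of no meaning. mmu-miR-23b stands at 44 partners on the left, in the sparse tail, and mmu-miR-24 at 13 on the right.

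Across the 8 samples, no pair from one cluster had an r above 0.004 relative to the global mean. For mmu-miR-23b and mmu-miR-27b Pearson's r was 0.004 (exact permutation p = 0.993, Spearman's rho 0.07, p = 0.882, n = 8). For mmu-miR-23b and mmu-miR-24 it was -0.27 (exact permutation p = 0.514, rho -0.45, p = 0.267). For mmu-miR-24 and mmu-miR-27a it was -0.63 (exact permutation p = 0.0914, rho -0.50, p = 0.216). For mmu-miR-24 and mmu-miR-27b it was -0.73 (exact permutation p = 0.0380, rho -0.81, p = 0.0218). That r was -0.38 without wild type 3 and 4, the samples farthest from the median, and it was positive in the Ct itself (0.19) and relative to U6 (0.87). Any difference between the groups enters these r over 8 samples. With deviations from the group mean, r was -0.35 for mmu-miR-23b with mmu-miR-27b and 0.39 for mmu-miR-23b with mmu-miR-24. It was -0.67 for mmu-miR-24 with mmu-miR-27a and -0.73 for mmu-miR-24 with mmu-miR-27b.

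Of the 2 pairs from different clusters, 1 had a positive r. For mmu-miR-27a and mmu-miR-27b r was 0.71 (exact permutation p = 0.0470, rho 0.60, p = 0.132, n = 8), and 0.15 without wild type 1 and 3. Those samples were picked as the farthest from the median of mmu-miR-27a, and leaving them out narrows its range, which tends to lower r. Leaving out 1 sample at a time gave r from 0.52 to 0.85. For mmu-miR-23b and mmu-miR-27a it was -0.08 (exact permutation p = 0.847, rho -0.02, p = 0.977), and 0.61 without wild type 1 and 7a. Leaving out the 2 farthest samples gave r = 0.40 for mmu-miR-23b with mmu-miR-27b, -0.48 for mmu-miR-23b with mmu-miR-24 and 0.23 for mmu-miR-24 with mmu-miR-27a. Over all 17955 pairs of miRNAs, 5.8% had an exact p under 0.05 with r above 0 and 5.53% with r below 0, and adjusted over them the 2 member pairs had exact permutation p = 0.433 (mmu-miR-27a with mmu-miR-27b) and 0.411 (mmu-miR-24 with mmu-miR-27b). The median r of all pairs was 0.004, with quartiles of -0.35 and 0.35.

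**Figure D5:**
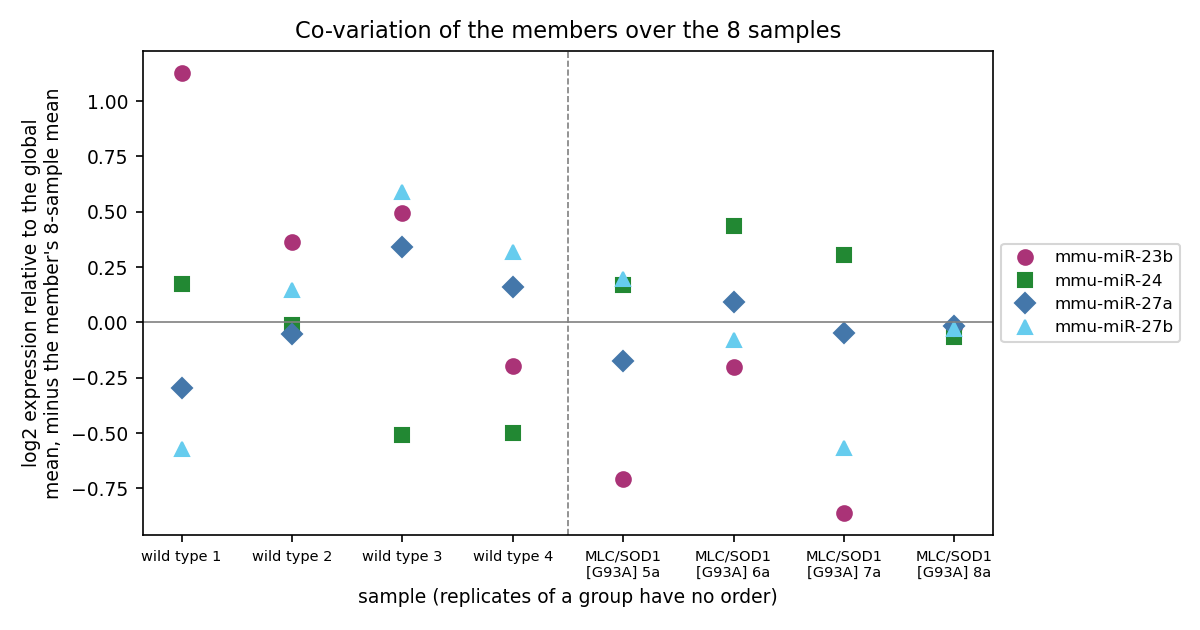
Log2 expression relative to the global mean, minus each member's mean over the 8 samples (y axis), by sample (x axis, wild type left and MLC/SOD1[G93A] right of the dashed line), with 1 marker shape per member. mmu-miR-27a and mmu-miR-27b lie on the same side of 0 in wild type 1, 3 and 4, mmu-miR-24 lies opposite to them there, and mmu-miR-23b is the highest member in wild type 1 and the lowest in 5a and 7a.

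The reference changed this picture. Relative to U6 all 6 member pairs correlated positively, from 0.60 for mmu-miR-23b with mmu-miR-24 to 0.99 for mmu-miR-27a with mmu-miR-27b. The median over all 17955 pairs on that scale was 0.77, with quartiles of 0.58 and 0.88. All values of a sample share its U6 Ct there, and the part of this in the r was not tested. In the Ct itself, with no reference, the median over all pairs was 0.36, with quartiles of -0.02 and 0.65. On that scale mmu-miR-27a and mmu-miR-27b had r = 0.93, above the upper quartile. mmu-miR-23b had r = 0.45 with mmu-miR-27b, 0.44 with mmu-miR-27a and -0.41 with mmu-miR-24. mmu-miR-24 had r = 0.34 with mmu-miR-27a and 0.19 with mmu-miR-27b.

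The members also followed the sample's own global mean Ct to different degrees. Per cycle of global mean Ct, the Ct of mmu-miR-24 moved by 0.13 cycles, that of mmu-miR-23b by 0.97, that of mmu-miR-27a by 1.40 and that of mmu-miR-27b by 1.80. The median slope was 0.36 for the 21 miRNAs with a mean Ct under 25 and 1.08 for the other 169. The global mean Ct thus varied over 0.98 cycles while that of mmu-miR-24 varied over 0.49, and the part of the reference in the negative r of mmu-miR-24 with mmu-miR-27b on that scale was not tested. Against miRNAs within 2 cycles of each member, r was -0.37 for mmu-miR-24 with mmu-miR-27b and 0.60 for mmu-miR-27a with mmu-miR-27b.

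The 3 miRNAs most like each member, by r relative to the global mean over the 8 samples, differed from member to member. For mmu-miR-23b they were mmu-miR-92a (0.87), mmu-miR-338-3p (0.81) and mmu-miR-361 (0.78). For mmu-miR-24 they were mmu-miR-187 (0.98), mmu-miR-331-3p (0.98) and mmu-miR-193b (0.91). For mmu-miR-27a they were mmu-miR-142-3p (0.91), mmu-miR-301a (0.85) and mmu-miR-652 (0.83), and for mmu-miR-27b mmu-miR-135a (0.95), mmu-let-7i (0.92) and mmu-miR-532-5p (0.89). All share the 8 samples and their reference, and the values are descriptions.

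Of the other miRNAs with a known role in oligodendrocytes or myelin, 12 of 12 listed were tested and 0 passed an limma adjusted p of 0.05 under either reference. Relative to the global mean 11 of the 12 changes were below 0, with a median of -0.15, and 2 of them had an unadjusted p under 0.05. These were mmu-miR-338-3p, enriched in oligodendrocytes, at -0.80 (SE 0.35, limma adjusted p = 0.515), and mmu-miR-19b at -0.53 (SE 0.23, limma adjusted p = 0.515). mmu-miR-219, the other oligodendrocyte miRNA, had -0.11 (SE 0.25). Some of the 11 were close to 0, such as mmu-miR-29a at -0.03 and mmu-miR-145 at -0.06. The summed level of the 12, as log2, ran from 7.99 to 8.52 in wild type and from 8.08 to 8.45 in MLC/SOD1[G93A]. Its change was 0.09, above 0. The share below 0 over all 227 miRNAs was 46.3% on that scale, with a median of 0.04. Relative to U6, 11 of 12 were below 0 with a median of -0.51, where 77.5% of all miRNAs were below 0 with a median of -0.31, and 0 of the 12 reached an unadjusted p under 0.05. The change of their summed level relative to U6 was -0.26.

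miRNAs that mark other cells of the cord were read beside the mmu-miR-23b result. The summed level of the oligodendrocyte miRNAs mmu-miR-219 and mmu-miR-338-3p, as log2 relative to the global mean, ran from 0.53 to 0.97 in wild type and from 0.08 to 0.94 in MLC/SOD1[G93A]. For 4 neuronal miRNAs it ran from 4.63 to 5.45 and from 4.58 to 5.02, with all 4 changes below 0. For 4 miRNAs of endothelial and mural cells it ran from 6.42 to 7.23 and from 6.43 to 6.96, with 3 changes below 0. For 5 of 6 miRNAs of leukocytes and microglia it ran from 4.18 to 5.08 and from 4.37 to 4.57, with 3 changes below 0. The one past an unadjusted p of 0.05 was mmu-miR-223, a myeloid miRNA, at -1.45 (SE 0.42, limma adjusted p = 0.427). For 2 of 3 red blood cell miRNAs it ran from 2.20 to 3.45 and from 1.99 to 3.16, with 1 change below 0, and for 3 skeletal muscle miRNAs from 3.90 to 5.31 and from 3.76 to 5.41, with all 3 below 0. Some of the changes counted as below 0 were close to it, such as the neuronal mmu-miR-137 at -0.0003 and the muscle mmu-miR-133a at -0.005. Over all 227 miRNAs, 46.3% of the changes were below 0 on that scale. The ranges of the groups overlapped for every list, and the part of cell makeup in the level of mmu-miR-23b was not tested.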

How the data were processed

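Total RNA (600 ng) of the lumbar ventral cord was reverse transcribed with Megaplex primer pools and run by the authors on TaqMan card A. The authors deposited Ct values, and a second table on the log2 scale in which the U6 mean was subtracted from each Ct: 1963 of 1963 values compared matched that rule within 0.015 cycles. The authors' deposited table of ratios between groups, with their own fold changes, was not used. A Ct is a single reading with no count behind it, so the number of samples limits the precision. The labels number replicates without stating that each is a separate animal, so p-values measure the spread between these samples, which may be technical.

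Ct over 35 or undetermined was set missing, as in the study's methods, and 227 miRNAs with a Ct in at least 3 of 4 samples per group were tested with limma 3.58.1 in R 4.3.3, with Benjamini-Hochberg adjustment over all of them. Single values, Ct differences of pairs and correlations were compared by exact permutation, two-sided (70 assignments, 40320 pairings), pairs adjusted over all 17955. The scripts were tested on simulated data. The members, lists and tests were chosen with earlier results of these data known. The miRNAs named were the members, the controls, the 3 nearest miRNAs of each member and the listed miRNAs. Alternatives changed the Ct limit, the missing-value rule, the test, the reference and the samples. Sequences and coordinates are from RefSeq, GRCm38.p6.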

Additional observations from a re-analysis of the deposited data

Results flagged for a closer look

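In 4 of the 36 sets of 4 samples examined, the highest or lowest sample stood far from the other 3 of its group by Dixon's criterion. Chance flags about 1 in 20 such sets, and the sets share samples and references. mmu-miR-24 relative to U6 had a log2 value of -5.73 in wild type 1, against -4.73 to -4.53 in the other wild type samples. mmu-miR-27a relative to U6 had -13.09 in MLC/SOD1[G93A] 7a, against -11.68 to -11.51 in the other 3. mmu-miR-27b relative to U6 had -13.62 in the same sample, against -11.69 to -11.32. The Ct of mmu-miR-24 minus that of mmu-miR-27a was -6.83 in 8a, against -7.23 to -7.22 in the other MLC/SOD1[G93A] samples.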

How the results depend on the processing

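The groups were compared as independent, since the labels name no pairing between wild type and MLC/SOD1[G93A] samples. Of 164 recomputed log2 changes of members, 154 stayed on the same side of 0 and of the threshold and 10 changed sign. For mmu-miR-23b, in all 23 with U6 and 18 with the global mean, the change stayed below 0 and the adjusted p over 0.05. Not all of the 164 could change sign. Other missing-value rules or tests repeat the main log2 change exactly under both references, as do other Ct limits with U6. Only the adjusted p could differ there. The global median is counted under both references. So 154 of 164 is not a measure of how stable the direction was. The change of mmu-miR-24, 0.07 relative to U6, changed sign with the median of the U6 wells (-0.04). It also changed sign where U87 alone (-2.20) or the mean of 4 controls (-0.15) took the place of U6. With U6 it ran from -0.20 without wild type 1 to 0.41 without 7a. Against snoRNA135 mmu-miR-27a was at 0.068, and against Y1 at 0.52, with mmu-miR-27b at 0.35; relative to the global mean mmu-miR-27a ran from -0.19 without wild type 1 to 0.027 without wild type 3. When each sample was left out, miRNAs at an adjusted p under 0.05 relative to U6 numbered 0 to 1, those lower at an unadjusted p 3 to 34 (U6) and 7 to 21 (global mean), and those higher 0 to 2 and 4 to 27, the upper ends without wild type 1 in each case; with a Ct limit of 32, 0 were higher relative to U6. Leaving out 1 sample, the Ct shift of mmu-miR-23b ran from 1.15 to 1.55 cycles against mmu-miR-24, with exact p = 0.0571 without any one wild type sample, and from 0.48 to 1.08 against mmu-miR-27a, past the threshold without wild type 4; that of mmu-miR-24 against mmu-miR-27b ran from -1.02, past the threshold without wild type 1, to -0.41. Correlations depended most on the setting. Relative to U6, r was 0.60 for mmu-miR-23b with mmu-miR-24, 0.75 with mmu-miR-27a and 0.76 with mmu-miR-27b, and 0.86 and 0.87 for mmu-miR-24 with mmu-miR-27a and mmu-miR-27b. With deviations from the group mean, r was 0.39 (mmu-miR-23b with mmu-miR-24), -0.35 (mmu-miR-23b with mmu-miR-27b), -0.73 (mmu-miR-24 with mmu-miR-27b) and 0.69 (the miR-27 pair). With the global median it was 0.18 (mmu-miR-23b with mmu-miR-27a), -0.67 (mmu-miR-24 with mmu-miR-27b) and 0.64 (the miR-27 pair), and with miRNAs within 2 cycles -0.060 (mmu-miR-23b with mmu-miR-27b), -0.37 and 0.60. Without the 2 farthest samples it was 0.61 (mmu-miR-23b with mmu-miR-27a), 0.23 (mmu-miR-24 with mmu-miR-27a), -0.38 (mmu-miR-24 with mmu-miR-27b) and 0.15 (the miR-27 pair), whose rho was 0.60. Leaving out 1 sample, r ran from -0.43 to 0.61 (mmu-miR-23b with mmu-miR-27a), -0.43 to 0.68 (mmu-miR-23b with mmu-miR-27b), -0.86 to -0.38 (mmu-miR-24 with mmu-miR-27a), -0.81 to -0.59 (mmu-miR-24 with mmu-miR-27b) and 0.52 to 0.85 (the miR-27 pair). The causes were not tested.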
